A study of Mus musculus with 4 samples.

Results

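The aminoacyl-tRNA synthetases are a family of 36 genes here, 20 whose product works in the cytosol and 16 whose product works in mitochondria, out of 21900 coding genes in the gene table used. They were taken by name from a list of the family that was drawn up with earlier results of these data known, and all 36 matched a gene symbol of the RefSeq annotation of GRCm38.p6. Around each of them, peaks of the transcription factor ATF4 were looked up in 2 deposited peak lists from chromatin immunoprecipitation and sequencing (ChIP-seq). The cells were primary cortical neurons of CD1 mouse embryos (day E14.5-15), an outbred stock, treated with cytosine arabinoside against dividing cells, transduced with lentivirus on culture day 6 and harvested on day 11. The control neurons were labelled wild type and received a control hairpin (shControl). The other neurons received a hairpin against Opa1 (shOpa1), the GTPase that fuses the inner mitochondrial membrane. The groups shared the CD1 stock, the lentiviral transduction, the drug and the culture times, and no promoter or single-cell clone of a hairpin vector was named in the labels. Each condition had 1 ATF4 library, so differences between the lists have no replicate check and no test was made. An IgG and an input library from control neurons belong to the series and were not analysed here.

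Aminoacyl-tRNA synthetases join each amino acid to its tRNA, which is the step that fixes the genetic code and feeds the ribosome. Mammals run this step in the cytosol with one set of nuclear genes and in mitochondria with another, and Gars and Kars each encode the enzyme of both compartments. ATF4 is the effector of the integrated stress response, which is set off when tRNAs stay uncharged or mitochondria fail, and genes of amino acid supply and tRNA charging are among its textbook targets. It binds DNA as a dimer, often with a C/EBP protein, at a composite element that joins the ATF4 recognition letters to those of C/EBP. A full cyclic AMP response element, or CRE, is the palindrome bound by related factors of the same family.

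The sequences below show where that composite element lies in promoters of synthetase genes. Each runs 5′ to 3′ along the gene from 250 bases before the RefSeq start to 20 bases from the start on. Capitals mark matches to TGATGNAA, the core of the composite element with any base at N, on either strand, so that a match on the opposite strand reads as its reverse complement. The first 5 genes are those with a match among all synthetase genes whose promoter is in the table, and each also had an ATF4 peak over it after Opa1 knock-down. The last 2 are the mitochondrial counterparts of Iars and Yars, which had no match and no peak. The bases are those of the reference genome (RefSeq, GRCm38.p6), not reads of the CD1 neurons.
Aars, chr8:111033592-111033861, plus strand: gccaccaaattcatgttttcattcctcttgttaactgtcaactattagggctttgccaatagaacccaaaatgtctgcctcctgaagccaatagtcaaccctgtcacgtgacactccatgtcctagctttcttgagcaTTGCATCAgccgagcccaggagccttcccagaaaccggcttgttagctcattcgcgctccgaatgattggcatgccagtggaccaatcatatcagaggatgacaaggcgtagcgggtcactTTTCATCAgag
Iars, chr13:49681880-49682149, plus strand: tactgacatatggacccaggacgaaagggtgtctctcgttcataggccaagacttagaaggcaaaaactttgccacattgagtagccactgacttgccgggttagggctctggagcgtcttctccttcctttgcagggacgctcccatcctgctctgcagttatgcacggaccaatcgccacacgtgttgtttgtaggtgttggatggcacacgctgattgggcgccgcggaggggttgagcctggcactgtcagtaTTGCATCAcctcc
Tars, chr15:11399639-11399908, minus strand: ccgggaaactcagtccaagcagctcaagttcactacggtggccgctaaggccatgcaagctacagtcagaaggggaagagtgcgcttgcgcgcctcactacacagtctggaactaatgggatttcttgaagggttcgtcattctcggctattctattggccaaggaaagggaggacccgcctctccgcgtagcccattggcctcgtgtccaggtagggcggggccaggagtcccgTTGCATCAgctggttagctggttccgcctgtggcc
Yars, chr4:129189653-129189922, plus strand: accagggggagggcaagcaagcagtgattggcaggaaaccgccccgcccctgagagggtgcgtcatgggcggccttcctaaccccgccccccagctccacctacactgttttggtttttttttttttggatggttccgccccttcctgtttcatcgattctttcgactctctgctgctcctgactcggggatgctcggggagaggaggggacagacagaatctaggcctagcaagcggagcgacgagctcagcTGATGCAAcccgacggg
Gars, chr6:55037751-55038020, plus strand: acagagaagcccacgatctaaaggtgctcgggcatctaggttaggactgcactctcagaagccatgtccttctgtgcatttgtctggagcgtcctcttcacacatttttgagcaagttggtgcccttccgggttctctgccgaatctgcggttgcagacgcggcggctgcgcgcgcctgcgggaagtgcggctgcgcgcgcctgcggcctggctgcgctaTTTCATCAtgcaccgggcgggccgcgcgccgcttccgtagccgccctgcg
Iars2, chr1:185329382-185329651, minus strand: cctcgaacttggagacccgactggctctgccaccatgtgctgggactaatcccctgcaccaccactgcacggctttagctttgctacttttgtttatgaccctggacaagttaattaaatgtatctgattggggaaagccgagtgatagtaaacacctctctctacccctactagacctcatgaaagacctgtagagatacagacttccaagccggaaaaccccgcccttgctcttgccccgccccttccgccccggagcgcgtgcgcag
Yars2, chr16:16302715-16302984, plus strand: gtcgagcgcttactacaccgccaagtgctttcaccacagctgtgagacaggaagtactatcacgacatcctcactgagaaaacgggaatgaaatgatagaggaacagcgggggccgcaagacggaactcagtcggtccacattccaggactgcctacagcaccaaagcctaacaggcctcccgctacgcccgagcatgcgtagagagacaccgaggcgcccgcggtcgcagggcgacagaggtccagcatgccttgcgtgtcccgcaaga

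The first comparison set the cytosolic genes beside the mitochondrial ones. After Opa1 knock-down, 10 of the 20 cytosolic genes (50.0%) had a peak summit inside the gene or within 10 kb of it, where 668 of 21900 coding genes (3.05%) did. In control neurons the count was 6 of 20 (30.0%), where 84 of all coding genes (0.384%) did. Of the 16 mitochondrial genes, 1 (6.25%) had such a peak after knock-down and 0 in control neurons, shares near the background of each list. Gene length differed little between the sets, with a median of 27.0 kb for cytosolic and 25.1 kb for mitochondrial genes, against 17.1 kb for all coding genes. The cytosolic genes with a knock-down peak were Aars, Cars, Eprs, Gars, Iars, Mars1, Nars, Sars, Tars and Yars. The 10 without a peak in either list were Dars, Farsa, Farsb, Hars, Kars, Lars, Qars, Rars, Vars and Wars. The lists themselves differ in length, 93 control and 952 knock-down peaks, and 93 knock-down peaks taken in the authors' rank order held 6 of the 20 cytosolic genes. Mars1 is among these 6 only through a site at rank 10 that lies inside Mbd6 and 297 bp from Ddit3. The peak at Mars1 itself ranked 127. The share of all coding genes marked by those 93 knock-down peaks was not computed.

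**Figure D1:**
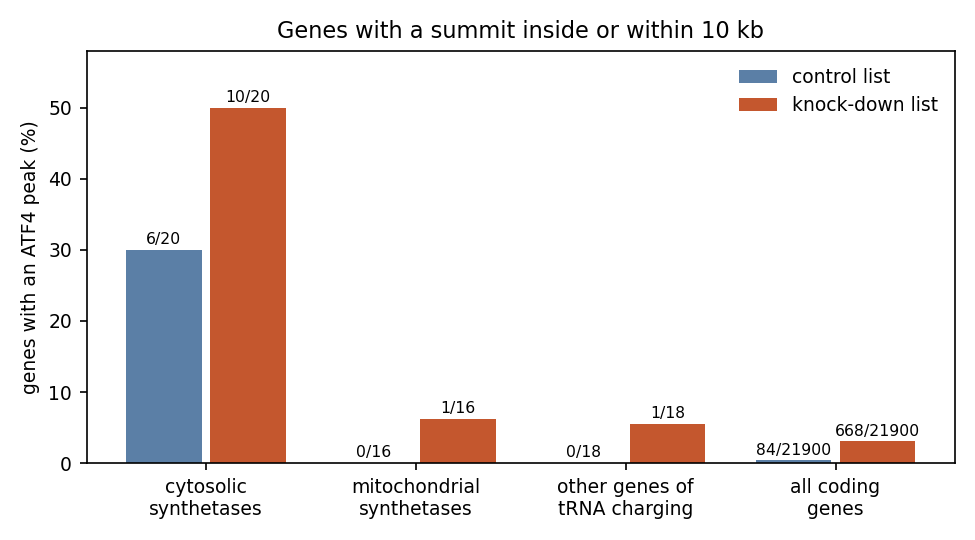
Percent of genes with a peak summit inside the gene or within 10 kb (vertical axis) in 4 gene groups, for the control list (blue) and the knock-down list (orange), with counts above the bars. Cytosolic synthetases stand at 30.0% and 50.0%, mitochondrial ones at 0 and 6.25%, and all coding genes at 0.384% and 3.05%.

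Gene starts set the compartments apart in the same way. A summit within 1 kb of the RefSeq start was found after knock-down for 7 of the 13 cytosolic genes whose start is in the promoter table (53.8%), namely Aars, Eprs, Gars, Iars, Mars1, Tars and Yars. The same held for 101 of 17492 coding genes with a start in the table (0.577%) and for 0 of 14 mitochondrial genes. In the control list Aars, Iars and Yars had one (3 of 13), against 26 of 17492 coding genes (0.149%) and 0 of 14 mitochondrial genes. Sars lay just outside this limit, with its knock-down summit 1016 bp after the start. Cars and Nars are not in the promoter table. Their knock-down summits were 73 bp and 72 bp from an end of the gene's annotated interval.

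Among peaks inside or within 1 kb of a cytosolic gene, that of Aars, the alanyl-tRNA synthetase, had the highest fold in both lists, while that of Sars was ahead of it by the authors' rank and by tags in both. Fold enrichment here is the authors' value over the peak caller's background, and tags are the reads counted in the peak, not scaled for depth. The 95% Poisson intervals of tags cover counting error only. The Aars peak had a fold of 12.5 and 32 tags (21.9 to 45.2) in control neurons and a fold of 30.1 and 101 tags (82.3 to 123) after knock-down, where it ranked 15 of 952. Its knock-down summit, in the peak at chr8 111033303 to 111034121 (mm10), was 5935 bp from the nearer end of the annotated gene interval but 129 bp before the RefSeq start. It is therefore a promoter peak by that start, although the annotated interval places it inside the gene. The control summit lay 7 bp away, 136 bp before the start.

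At Sars, the seryl-tRNA synthetase, the fold was 10.66 with 38 tags (26.9 to 52.2) in control neurons, where it ranked 9 of 93, and 27.7 with 117 tags (96.8 to 140) after knock-down, where it ranked 13. Both summits were inside the gene, 1063 and 1016 bp after the start. The knock-down peak at chr3 108443695 to 108444789 began 470 bp after the start, so the promoter window printed for the other genes did not reach it.

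Cars, the cysteinyl-tRNA synthetase, had a fold of 5.65 with 18 tags (10.7 to 28.4) in control neurons and 17.7 with 60 tags (45.8 to 77.2) after knock-down, at chr7 143599645 to 143600387. Iars, the isoleucyl-tRNA synthetase, had a fold of 5.94 with 21 tags (13.0 to 32.1) in control neurons and 16.25 with 51 tags (38.0 to 67.1) after knock-down, at chr13 49681849 to 49682515. Yars, the tyrosyl-tRNA synthetase, had folds of 5.65 with 18 tags (10.7 to 28.4) and 11.95 with 59 tags (44.9 to 76.1), the latter at chr4 129189528 to 129190362. The Poisson intervals of the tags did not overlap between the lists at any of these 5 genes. How many of all 80 peak pairs shared between the lists did the same was not counted, so this says nothing particular to synthetases. The tags were also counted over unequal widths. At these 5 genes the control peaks were 304 to 538 bp wide and the knock-down peaks 667 to 1095 bp. The depth of either library is not known, so the tags are no measured change in binding. Iars and Yars summits lay 8 and 25 bp after the start in control neurons and 53 and 43 bp after it in knock-down neurons. The Yars summit was also 281 bp from S100pbp after knock-down, and which of both genes the site serves was not tested.

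At these 5 sites and at one more beside Mars1, the knock-down fold was 2.12 (Yars) to 3.43 (the site beside Mars1) times the control fold, with a median of 2.67. All 80 peak pairs shared between the lists had a median ratio of 2.26, and their middle 50% ran from 1.77 to 2.63. The synthetase ratios thus lay within the range of shared sites in general (0.762 to 5.08), and ranked 3 (beside Mars1), 9 (Cars), 19 (Iars), 21 (Sars), 28 (Aars) and 48 (Yars) of 80 from the highest. Paired summits lay 7 to 47 bp apart. These folds come from separate calls, so a ratio describes the lists. The Iars control peak has its score and length in another form than most peaks, and its ratio mixes both forms.

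The site beside Mars1 belongs more closely to other genes. Its summits, 5695 bp (control) and 5725 bp (knock-down) from the end of Mars1, were inside Mbd6 and 267 and 297 bp from Ddit3, which encodes the stress factor CHOP. Its folds were 10.04 with 30 tags and 34.4 with 109 tags. Mars1, the methionyl-tRNA synthetase, also had a peak of its own, which only the knock-down list held, at chr10 127311273 to 127312040 with a summit 129 bp after the start, a fold of 12.91 and 50 tags (37.1 to 65.9). Without the site at Ddit3, 5 and not 6 cytosolic genes had a control peak.

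Peaks seen only after knock-down marked Eprs, Gars, Tars and Nars besides Mars1. Eprs, which charges both glutamate and proline, had 2 of them. One at chr1 185363601 to 185364397 had its summit 956 bp after the start, a fold of 15.3 and 69 tags (53.7 to 87.3). The other, with its summit 230 bp after the start, had a fold of 4.18 and 18 tags (10.7 to 28.4), ranked 935 of 952 and is in the second score form. Gars, the glycyl-tRNA synthetase of both compartments, also had 2, of nearly equal strength. Their summits were 2 and 967 bp after the start, with folds of 11.47 and 11.95 and with 36 (25.2 to 49.8) and 39 tags (27.7 to 53.3). Kars, the other gene serving both compartments, had none.

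Tars, the threonyl-tRNA synthetase, and Nars, the asparaginyl-tRNA synthetase, had the lowest folds among cytosolic genes with a single knock-down peak. The Tars peak at chr15 11399435 to 11400006 had its summit 63 bp before the start, a fold of 8.6 and 31 tags (21.1 to 44.0). The Nars peak had a fold of 8.13 and 23 tags (14.6 to 34.5). Both folds are close to the median of all knock-down peaks (8.13). The control list held peaks with folds down to 3.71, and Cars entered it at 5.65 with 18 tags. A control peak weaker than those listed could still fall under the authors' limit. A missing entry there thus does not show that the sites were unbound.

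**Figure D2:**
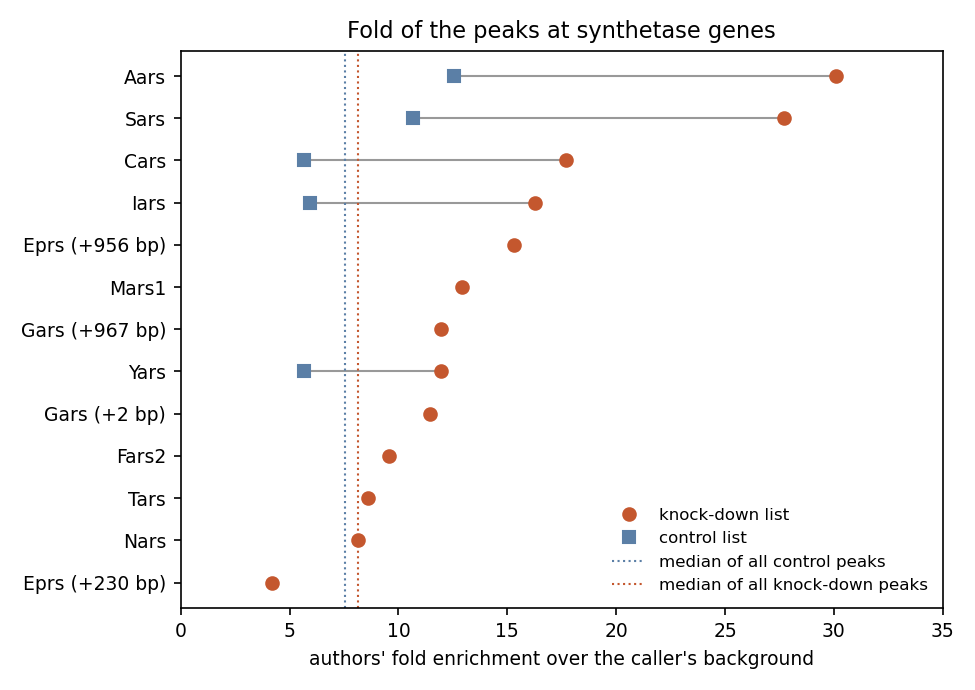
The authors' fold enrichment (horizontal axis) of each peak inside or within 1 kb of a synthetase gene in the knock-down list (orange circles), with the overlapping control peak (blue squares) where there is one; dotted lines mark the median fold of each list. Aars and Sars lie highest at 30.1 and 27.7, and the 5 genes with a control peak are each further right in the knock-down list.

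As a group, the 12 knock-down peaks inside or within 1 kb of a cytosolic gene had a median fold of 12.4, against 8.13 for all 952. Of these 12, 10 were among the 476 best-ranked knock-down peaks and 10 were above the median fold of the list. Their median width was 728 bp, against 590 bp. For the 5 control peaks the median fold was 5.94, below the 7.53 of the whole control list, and 2 of them were among its 46 best-ranked. A summit within 1 kb of any RefSeq start was found for 9 of the 12 and for 111 of all 952 knock-down peaks (11.7%). The 12 were chosen for lying at a gene, whereas only 615 of the 952 were inside or within 10 kb of a coding gene. These shares are therefore not like for like. Cars and Nars, both among the 12, have no start of their own in the promoter table.

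The motif matches of the 5 genes lay within 48 bases of the nearer summit of each list, save the second match in Aars. Matches were searched only in a window at the start, and these genes were picked for having one. Short distances to summits near the start were thus partly set in advance. TGATGCAA, the exact form of the composite core on either strand, was in the promoter window (300 bases, from 250 before the start on) of Aars, Iars, Tars and Yars. In Aars it began 112 bases before the start and lay 17 bases from the knock-down summit and 24 from the control summit. In Iars and Yars it began 7 and 3 bases after the start. The Iars control summit fell inside the match, and the knock-down summit was 39 bases away. In Yars the distances were 15 bases (control) and 33 (knock-down). In Tars the match began 15 bases before the start, 48 bases from the knock-down summit. Gars had the looser form TGATGNAA alone, 30 bases before the start and 25 from the nearer knock-down summit. Aars held a second looser match 9 bases after the start, 138 bases from the knock-down summit.

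**Figure D3:**
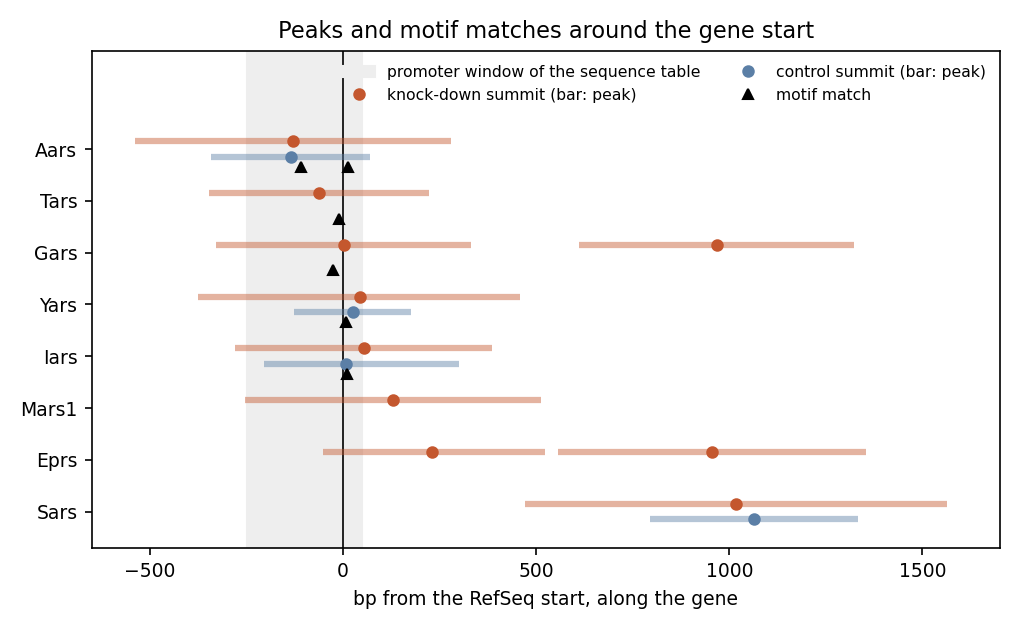
Peaks around the RefSeq start of 8 cytosolic synthetase genes, in bp along the gene (horizontal axis, start at 0): bars are peaks and circles their summits, orange for the knock-down and blue for the control list, triangles are TGATGNAA matches and grey is the window searched. Matches in Aars, Tars, Gars, Yars and Iars lie within 48 bp of a summit, save the second Aars match, and the Sars peaks lie wholly outside the window.

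No other synthetase promoter in the table held a match. TGATGCAA was found in 4 of 8 promoters of cytosolic genes with a knock-down peak, in 0 of 5 of cytosolic genes without one and in 0 of 15 mitochondrial promoters. Of all 32851 promoters in the table, 294 (0.895%) held it. TGATGNAA, which includes the exact form, was in 5 of 8, 0 of 5 and 0 of 15, against 1304 of all promoters (3.97%). Mars1, Eprs and Sars were the 3 bound genes of the table with no match. Their summits lay outside the window searched, as did the Iars knock-down summit, 53 bp after the start. The Mars1 peak spanned the whole window, the Eprs peak nearer to the start covered a part of it, and the Sars peaks covered none. No match says only that these letters are not in that window. The CRE palindrome TGACGTCA was in 0 of the 15 mitochondrial and in none of the cytosolic promoters in the table. It was in 588 of all promoters (1.79%), so its absence from sets this small does not set them apart. The 0 of 15 mitochondrial promoters with either form of the composite core is likewise near the share of all promoters.

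The synthetases were not alone in this. A knock-down summit fell inside the promoter window in 41 cases, 4 of them synthetases (Aars, Gars, Tars and Yars). Of the other 37 windows, 15 held TGATGCAA (40.5%) and 21 held TGATGNAA (56.8%). In the 32752 windows with no knock-down peak over them the shares were 0.834% and 3.89%. TGACGTCA was in 0 of the 41 windows, and in 1.8% of the windows with no knock-down peak over them.

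**Figure D4:**
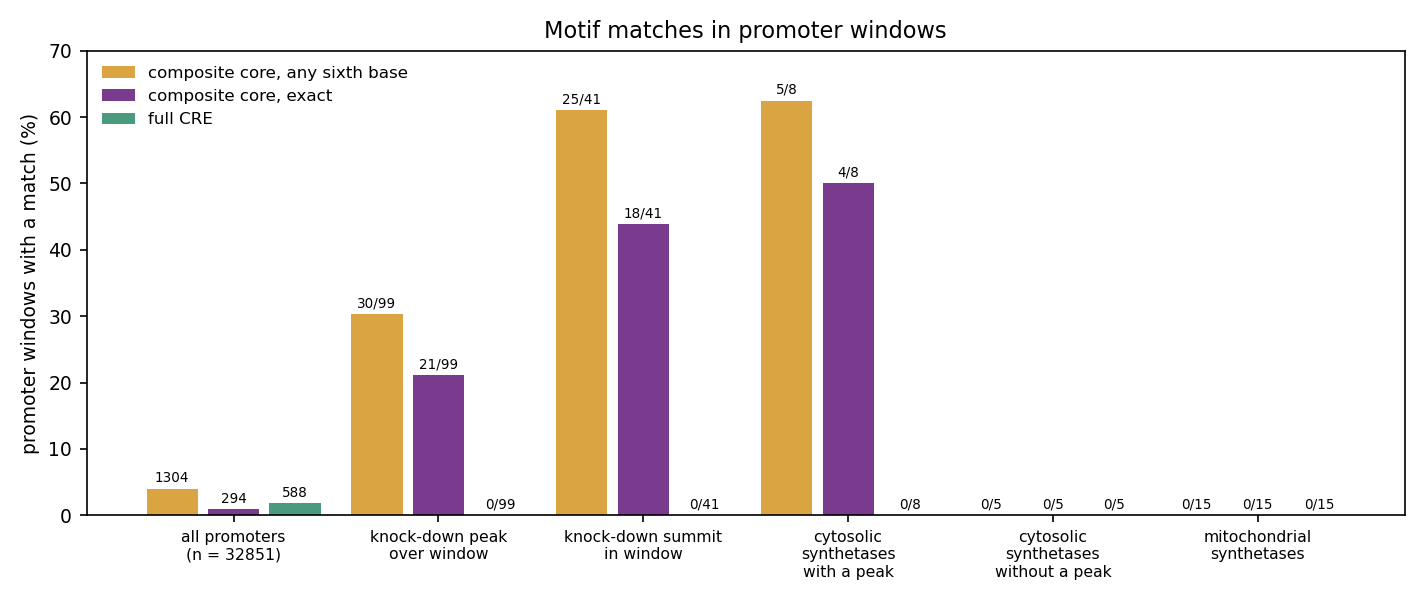
Percent of promoter windows with a match (vertical axis) for the composite core with any sixth base (yellow), its exact form (purple) and the full CRE (green) in 6 sets of promoters, with counts above the bars. The exact core stands at 0.895% of all promoters, 43.9% of those with a knock-down summit inside, 4 of 8 bound cytosolic synthetases and 0 of 15 mitochondrial ones.

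Among mitochondrial genes the 1 peak lay far from any start. Fars2, the mitochondrial phenylalanyl-tRNA synthetase, had a knock-down peak at chr13 36448625 to 36449208 with a fold of 9.56 and 33 tags (22.7 to 46.3). Its summit was 331 kb after the start and 88678 bp from the nearer end of the gene. At 420.0 kb Fars2 is the longest of the 36 genes, and of 315 coding genes at least as long, 92 (29.2%) held or neighboured a knock-down summit by the same rule. Aars2, Cars2, Ears2, Hars2, Iars2, Lars2, Mars2, Nars2, Pars2, Rars2, Sars2, Tars2, Vars2, Wars2 and Yars2 had no peak in either list. Knock-down peaks marked Aars, Cars, Iars, Mars1, Nars, Sars, Tars and Yars, while the mitochondrial gene for the same amino acid had none. Eprs was marked as well, and neither Ears2 (glutamate) nor Pars2 (proline) had a peak. Iars2 is on chromosome 1 near Eprs, with Bpnt1 between them, and the Eprs summits were 33855 and 34581 bp from Iars2.

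Peaks were spread over both structural classes of cytosolic enzyme. Class I enzymes, built on a Rossmann fold, carried one in knock-down neurons at 4 of 9 genes (Cars, Iars, Mars1 and Yars), and class II enzymes, built on an antiparallel sheet, at 5 of 10 (Aars, Gars, Nars, Sars and Tars). Eprs carries an enzyme of each class. In the control list the counts were 4 of 9 and 2 of 10, with Mars1 among the 4 only through the site at Ddit3. By the same rule, 3.05% of all coding genes had a knock-down peak and 0.384% a control peak. Of the 8 genes whose enzymes sit in the multi-synthetase complex, a cytosolic assembly, knock-down peaks marked 3 (Eprs, Iars and Mars1), and of the 12 others 7 did. Differences between such small counts were not tested.

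Of 18 other genes of tRNA charging and delivery, 1 was marked by a peak, and by the knock-down list only. That gene was Xpot, the exportin that carries tRNA out of the nucleus, with a summit 318 bp after the start, a fold of 10.04 and 39 tags (27.7 to 53.3). The complex scaffolds Aimp1, Aimp2 and Eef1e1 had none. The same held for Qrsl1, Gatb and Gatc, which form glutaminyl-tRNA in mitochondria by amidation, and for the elongation factor genes Eef1a1, Eef1a2 and Tufm. At 1 of 18 (5.56%) the share was near the 3.05% of all coding genes.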

How the data were processed

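ATF4 peaks were called by the authors with MACS2 on mm10, as the submitters' processing notes name them. Aligner, control library of the calls, their limits and sequencing depth are among the points not given in the sources used here. The authors' deposited peak lists give each peak a rank, a p-value score, a fold (ratio over the caller's background), the summit, tags and a length, all packed in a single text field. The hairpin in a list's name ties it to 1 ATF4 library. A second score form, in which length and interval differ, is used for 9 peaks of the control list and 66 of the other.

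Gene intervals, starts, strands and promoter sequences came from RefSeq tables of GRCm38.p6, whose coordinates are those of mm10. A peak counted for a gene when its summit was inside it or within 10 kb. The start was read from the promoter table, which covers 27 of the 36 members. Overlap of peaks meant at least 1 bp. Motifs were searched on both strands of 32851 promoters. The steps were tested on simulated peaks and sequences. Members, lists and motifs were chosen with earlier results of these data known. Every member with a peak was named, with the nearer coding genes. Alternatives covered windows, assignment, stricter peaks, score form, overlap and list length. Samples were grouped by title, with 1 library per condition and no test. Counting was done in Python 3.11.15 with pandas 2.3.3 and numpy 2.4.6, Poisson intervals with scipy 1.17.1 and figures with matplotlib 3.10.9.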

Additional observations from a re-analysis of the deposited data

How the results depend on the processing

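Of 58 recomputed counts, 49 stayed within 1.5 times the reported one. Cytosolic genes with a control peak went from 6 to 3 in the better-ranked 50.0% of the list and to 3 at a fold of at least 10, where Cars, Iars and Yars were lost in both. Of the genes left, Aars, Mars1 and Sars, Mars1 stayed only through the site at Ddit3. Those with a knock-down peak went from 10 to 6 at equal list lengths, where fewer peaks entered and Mars1 stayed only through the site at Ddit3. The mitochondrial count after knock-down went from 1 to 0 at a fold of at least 10 and to 0 at equal lengths. Shared member sites went from 6 to 3 (Aars, Iars and the site at Ddit3 beside Mars1) with a reciprocal overlap of 50%, where the wider knock-down peaks count against a match.

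Chosen after seeing the data were the following. Other charging genes went from 1 to 3 with a window of 25 kb (Eef1a1 and Tufm added) and to 0 at equal lengths. Cytosolic promoters with TGATGCAA went from 4 to 2 (Aars and Tars) with bases before the start alone. Equal list lengths leave the control list as it is. No paired analysis was possible because only 1 ATF4 library was made for each hairpin. With depth unknown, a gene with no peak cannot be called unbound.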
